A study of Mus musculus with 18 samples.

Results

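Tetrahydrobiopterin (BH4) and catecholamine metabolism was followed through 9 enzyme genes in hypothalamic RNA of Schlager hypertensive BPH/2J and normotensive BPN/3J mice. The genes were *Gch1*, *Pts*, *Spr*, *Qdpr*, *Pcbd1*, *Dbh*, *Pnmt*, *Maoa* and *Maob*. They were taken by their symbols in the platform annotation, and each of the 9 had exactly 1 probeset among the 19937 genes that the array annotation names singly.

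BH4 is the cofactor of the aromatic amino acid hydroxylases, among them tyrosine hydroxylase and tryptophan hydroxylase, and of the nitric oxide synthases. It is built from GTP by GTP cyclohydrolase (*Gch1*), 6-pyruvoyl-tetrahydropterin synthase (*Pts*) and sepiapterin reductase (*Spr*), and after use it is restored by pterin-4a-carbinolamine dehydratase (*Pcbd1*) and dihydropteridine reductase (*Qdpr*). Dopamine β-hydroxylase (*Dbh*) makes noradrenaline from dopamine, phenylethanolamine N-methyltransferase (*Pnmt*) makes adrenaline from noradrenaline, and the monoamine oxidases of the mitochondrial outer membrane (*Maoa* and *Maob*) break monoamines down. Noradrenaline and adrenaline reach the hypothalamus mainly in fibres from brainstem neurons, whose cell bodies, and most of whose *Dbh* and *Pnmt* mRNA, lie outside it.

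BPH/2J is an inbred line that was selected for high blood pressure (BP), and BPN/3J is the normotensive line bred beside it. Male mice were killed in the active period at ‘peak’ BP, aged 26 weeks, or in the inactive period at ‘trough’ BP, aged 18 weeks by the sample labels and 19 weeks by the series description. Each strain was represented by 6 animals at ‘peak’ BP and by 3 at ‘trough’ BP, none of them given a drug or a transgene by the labels. Time of day and age therefore differed together and cannot be told apart in any comparison of ‘peak’ with ‘trough’ BP. One mouse was hybridized per array, and a mouse is named here by the number in its title. The labels name the tissue as hypothalamus, and the study's methods describe its paraventricular and dorsomedial nuclei. For the BPN/3J ‘trough’ mice a second label gives BPH/2J as the strain. Their titles were followed. Of the 462 probesets that differed between the strains at ‘peak’ BP, 434 (93.9%) had the same sign at ‘trough’ BP.

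Signals are RMA values on the log2 scale, so a difference of 1 is a doubling. Differences were tested with limma in 1 model of the 4 groups. A gene was called at a Benjamini-Hochberg adjusted p under 0.05 over all 34760 probesets, and intervals are 95% intervals of the same model. Of the 9 probesets, 6 lay above the 40th percentile of mean signal (5.64), and those of *Gch1*, *Dbh* and *Pnmt* lay below it. Levels of different probesets are not compared. Arrays of BPN/3J ‘peak’ mice 11 and 10 correlated least with the others of their own group (mean r of 0.967 and 0.979), and the other arrays ranged from 0.981 to 0.992. Of the 16 hypothalamic markers looked for, 15 were measured. Since whole tissue was used, fewer cells of a type and less RNA per cell cannot be told apart.

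*Pts* and *Maoa* were the members called higher at ‘peak’ BP in both strains. The 250 bases before the annotated start of each are shown for that reason alone. Of all probesets 3.54% were also called higher in both strains, so this is not particular to the pair. They are RefSeq sequences of GRCm38.p6, read 5′ to 3′ on the gene's own strand. *Pts* lies on the minus strand at chr9:50528657-50528906 and *Maoa* on the plus strand at chrX:16619448-16619697. Capitals mark a GC box, GGGCGG on either strand.
Pts: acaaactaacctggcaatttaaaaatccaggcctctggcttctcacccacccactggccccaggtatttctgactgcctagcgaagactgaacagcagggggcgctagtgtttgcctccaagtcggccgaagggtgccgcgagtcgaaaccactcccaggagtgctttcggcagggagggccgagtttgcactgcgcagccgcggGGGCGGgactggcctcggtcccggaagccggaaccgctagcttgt
Maoa: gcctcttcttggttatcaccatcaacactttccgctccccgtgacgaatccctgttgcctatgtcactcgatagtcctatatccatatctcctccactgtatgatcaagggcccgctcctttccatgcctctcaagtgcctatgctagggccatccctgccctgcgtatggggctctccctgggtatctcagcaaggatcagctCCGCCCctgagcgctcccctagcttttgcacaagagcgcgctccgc
The match began at position -45 from the start in *Pts* and -46 in *Maoa*. Such a box stood in 32.7% of all 32851 promoters of this length. It was also found in the *Gch1*, *Spr* and *Qdpr* promoters, and not in those of *Pcbd1* and *Dbh*. None of these 7 promoters held an E-box (CACGTG, in 6.02% of all), a cAMP response element (TGACGTCA, in 1.55%) or a D-box (TTATGTAA or TTACGTAA, in 0.931%). A match is a description of letters and not of binding. The *Pnmt* and *Maob* promoters were not analysed here.

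From ‘trough’ to ‘peak’ BP, *Pts*, *Maoa* and *Maob* rose in BPH/2J, while in BPN/3J *Pts* and *Maoa* rose and *Pnmt* fell. In BPH/2J 3 of 9 members were called, all higher, against 8.64% of all probesets, with 4.25% higher and 4.39% lower. In BPN/3J 3 of 9 were called, against 25.3% of all probesets, with 12.9% higher and 12.4% lower. The BPN/3J count is thus near its background. *Pts*, *Maoa* and *Maob* lay above the 40th percentile of signal, where calls were more frequent. In a fit of such probesets alone, 3 of 6 members were called in BPH/2J, beside 18% of the probesets. In BPN/3J it called 2 of 6, beside 36%. The 2 members called higher in both strains stand beside 3.54% of all probesets, those of low signal included. The 9 members had a median difference of 0.20 in BPH/2J and 0.18 in BPN/3J, and that of all probesets was -0.02 and -0.01.

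**Figure D1:**
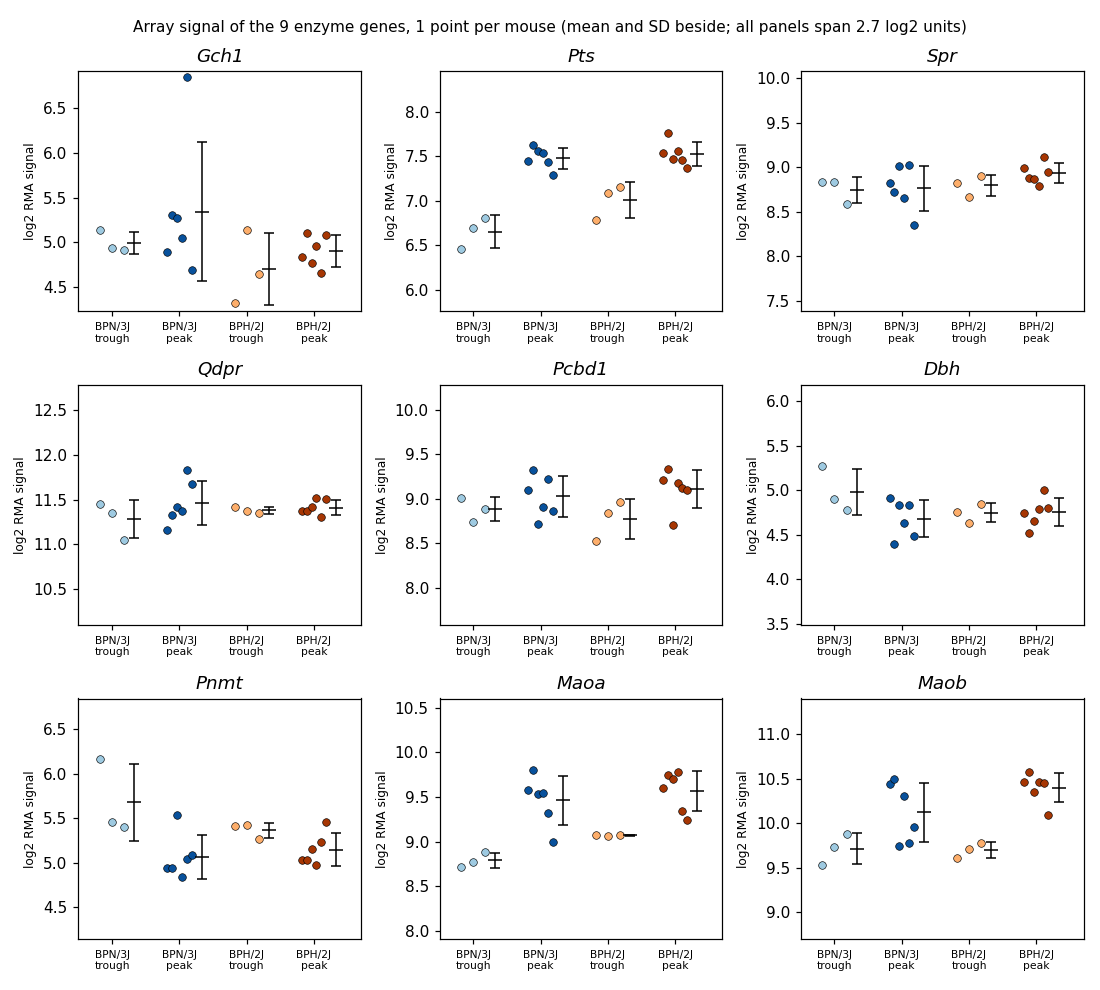
Log2 RMA signal (vertical axis) of the 9 enzyme genes in BPN/3J and BPH/2J mice at ‘trough’ and ‘peak’ BP, with 1 point per mouse and the group mean and SD beside the points. Every panel spans the same number of log2 units. In the *Pts* and *Maoa* panels the ‘peak’ points lie above the ‘trough’ points of the same strain, and 1 BPN/3J ‘peak’ mouse stands at 6.86 in the *Gch1* panel.

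Among the genes for the first steps of BH4 synthesis, only *Pts* was called over time. Its signal was 6.78, 7.09 and 7.16 in BPH/2J mice 1, 2 and 3 at ‘trough’ BP, and at ‘peak’ BP the lowest, median and highest were 7.37, 7.50 and 7.77. In BPN/3J it was 6.45, 6.69 and 6.81 in mice 1, 3 and 4 at ‘trough’ BP, and 7.29, 7.49 and 7.62 at ‘peak’ BP. All ‘peak’ mice stood above all ‘trough’ mice of their strain, as 8.19% of all probesets did in BPH/2J and 11.6% in BPN/3J. The rise was 0.52 (SE 0.11, interval 0.29 to 0.75, limma adjusted p = 0.00775) in BPH/2J, a ratio of 1.43. In BPN/3J it was 0.83 (SE 0.11, interval 0.60 to 1.06, adjusted p = 0.000247), a ratio of 1.77. The BPH/2J call was lost without ‘trough’ mouse 1, the lowest of its group, where the difference was 0.40 with an adjusted p of 0.0768. The BPN/3J call was kept whichever array was left out.

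*Gch1*, whose product catalyses the entry step and is held to limit the rate of BH4 synthesis in many tissues, was not called in any comparison. At ‘trough’ BP it was 4.32, 5.13 and 4.64 in BPH/2J mice 1, 2 and 3 and 5.13, 4.94 and 4.91 in BPN/3J mice 1, 3 and 4. The lowest, median and highest at ‘peak’ BP were 4.66, 4.89 and 5.11 in BPH/2J and 4.68, 5.16 and 6.86 in BPN/3J. The groups overlapped, and the highest value came from BPN/3J mouse 10, the others of its group ending at 5.30. The difference between the strains at ‘peak’ BP was -0.44 (SE 0.27, interval -1.01 to 0.13, adjusted p = 0.655), and -0.14 without mouse 10. The BPN/3J difference between ‘peak’ and ‘trough’ BP was 0.35 with it and 0.04 without it.

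Several genes of dopaminergic and serotonergic neurons were also highest in that mouse, while *Hdc* (histidine decarboxylase), *Slc6a2* (the noradrenaline transporter), *Slc18a1* and *Tph1* were highest in other mice. Its signal was 11.16 for *Th* (tyrosine hydroxylase), 10.93 for *Ddc* (aromatic L-amino acid decarboxylase), 11.11 for *Slc18a2* (the vesicular monoamine transporter of neurons) and 11.72 for *Slc6a3* (the dopamine transporter). *Tph2*, the tryptophan hydroxylase of serotonergic neurons, was 8.39 in mouse 10 and at most 4.85 in the other BPN/3J ‘peak’ mice. *Slc6a4*, the serotonin transporter, was 7.69 against at most 5.49. The dopaminergic marker *Pitx3* and the serotonergic marker *Lmx1b* were instead highest in BPN/3J ‘trough’ mice, at 7.09 and 7.38. The BPN/3J ‘peak’ mice reached at most 6.85 and 6.90 for them. *Slc18a2*, *Slc6a3*, *Tph2*, *Slc6a4*, *Pitx3* and *Lmx1b* were named after their values had been seen. The summed signal of the 9 dopaminergic markers lay between 2510 and 13500 in BPN/3J at ‘peak’ BP and between 2120 and 4860 at ‘trough’ BP. In BPH/2J it lay between 2820 and 6040 at ‘peak’ BP and between 3490 and 6130 at ‘trough’ BP. That of the 4 measured serotonergic markers lay between 274 and 869 in BPN/3J at ‘peak’ BP and between 275 and 393 over the other groups. Both sums were highest in mouse 10, and their part in its *Gch1* value was not tested.

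**Figure D2:**
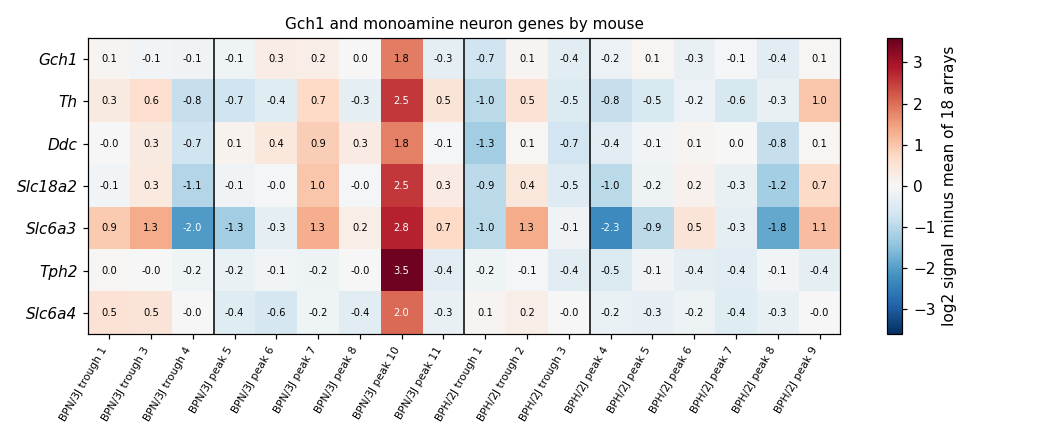
*Gch1* and 6 genes of dopaminergic and serotonergic neurons, chosen after their values had been seen, in each of the 18 mice, as log2 signal minus the gene's mean over all arrays (colour and printed value), with vertical lines between the 4 groups. BPN/3J ‘peak’ mouse 10 has the highest value of *Gch1* and of the 6 genes shown with it. The markers *Pitx3* and *Lmx1b*, which were highest in BPN/3J ‘trough’ mice, are not shown.

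*Spr*, *Qdpr* and *Pcbd1*, which finish and recycle BH4, were not called in any comparison. *Spr* lay between 8.35 and 9.11 over all 18 mice, *Qdpr* between 11.05 and 11.83 and *Pcbd1* between 8.53 and 9.33, with overlapping groups. The largest of their differences over time was that of *Pcbd1* in BPH/2J, 0.33 (SE 0.15, interval 0.02 to 0.64), with an unadjusted p of 0.0377 and an adjusted p of 0.183 in limma. It was 0.21 without BPH/2J ‘trough’ mouse 1. With array weights, which count an array by how closely it fits the model, *Pcbd1* was called higher in both strains, where 26.6% of all probesets were called in BPH/2J and 55.9% in BPN/3J. In the same strain *Spr* differed by 0.14 (SE 0.13, interval -0.13 to 0.40), and by 0.07 without ‘trough’ mouse 2. In BPN/3J *Qdpr* differed by 0.18 (SE 0.12, interval -0.08 to 0.44), and by 0.06 without ‘trough’ mouse 4. The other differences of these 3 genes over time were smaller than their own SE.

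Both monoamine oxidase genes, which are neighbours on the X chromosome, were called higher at ‘peak’ BP in BPH/2J, and in BPN/3J *Maoa* alone of the pair was. *Maoa*, whose enzyme prefers serotonin and noradrenaline, was 9.07, 9.06 and 9.08 in BPH/2J mice 1, 2 and 3 at ‘trough’ BP, and 9.24, 9.65 and 9.78 at ‘peak’ BP (lowest, median and highest). In BPN/3J it was 8.72, 8.77 and 8.88 in mice 1, 3 and 4 at ‘trough’ BP, and 8.99, 9.54 and 9.81 at ‘peak’ BP. No ‘peak’ mouse overlapped the ‘trough’ mice of its strain. The rise was 0.67 in BPN/3J (SE 0.15, interval 0.36 to 0.99, adjusted p = 0.00521), a ratio of 1.59. That call was kept in all 18 fits that left out an array. In BPH/2J the rise was 0.50 (SE 0.15, interval 0.19 to 0.81, adjusted p = 0.046), a ratio of 1.41, and it was called in 6 of the 18 such fits, those without BPH/2J ‘peak’ mouse 8 or 9, BPN/3J ‘peak’ mouse 6, 10 or 11, or BPN/3J ‘trough’ mouse 1 (adjusted p from 0.0168 to 0.152 over the 18).

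The mice with the highest numbers in the ‘peak’ groups, BPH/2J mice 8 and 9 and BPN/3J mice 10 and 11, had the lowest *Maoa* values of their groups. These were 9.34 and 9.24 in BPH/2J and 9.32 and 8.99 in BPN/3J. The labels do not say what the numbers stand for. Without these 4 mice the *Maoa* difference was 0.64 (limma adjusted p = 0.00048) in BPH/2J and 0.83 (adjusted p = 6e-05) in BPN/3J. Since they were the lowest of their groups, leaving them out had to widen the rise, and this fit lends it no support. It called 19.2% of all probesets in BPH/2J and 36.7% in BPN/3J, against 8.64% and 25.3% with all mice.

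*Maob*, whose enzyme prefers phenylethylamine and in brain is found largely in astrocytes and in serotonergic and histaminergic neurons, was 9.61, 9.71 and 9.78 in BPH/2J mice 1, 2 and 3 at ‘trough’ BP. The lowest, median and highest at ‘peak’ BP were 10.09, 10.46 and 10.57, with no overlap. The rise was 0.70 (SE 0.16, interval 0.36 to 1.03, adjusted p = 0.0123), a ratio of 1.62, and it was lost only without ‘trough’ mouse 1 among the fits that left out an array (0.65, adjusted p = 0.0772). In BPN/3J the ‘trough’ values were 9.53, 9.73 and 9.88 in mice 1, 3 and 4 and the ‘peak’ values 9.74, 10.13 and 10.49, and the groups overlapped. The BPN/3J difference of 0.41 (SE 0.16, interval 0.07 to 0.74, adjusted p = 0.0701) was not called. It passed with array weights, without BPN/3J ‘peak’ mouse 7 or mouse 10, and in other fits given in the closing section. Mice 7 and 10 had the lowest *Maob* values of their group (9.74 and 9.78). Leaving out either had to widen the difference, and those fits lend it no support.

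Of 8 astrocyte markers, 1 (*Slc1a2*, a glutamate transporter) was called lower and 0 higher in BPH/2J, and 0 were called in BPN/3J. The differences were positive for 4 of the 8 in BPH/2J and for 5 in BPN/3J. At an unadjusted p under 0.05, *Gjb6* (a gap junction protein) was positive in BPH/2J (0.26, limma adjusted p = 0.106), with groups apart, and *Gfap* (an intermediate filament) and *Slc1a2* were negative (-0.92 and -0.32). In BPN/3J *Aqp4* (a water channel) and *S100b* (a calcium-binding protein) were positive (0.34 and 0.26, limma adjusted p of 0.0814 and 0.0964), and *Slc1a2* was negative (-0.23). Their summed signal ran from 10300 to 11700 in BPH/2J at ‘peak’ BP and from 11500 to 11600 at ‘trough’ BP. In BPN/3J it ran from 10100 to 11400 at both times. Of the 4 histaminergic markers 0 were called over time in either strain, and of the 4 measured serotonergic markers 0 in BPH/2J and 1 in BPN/3J, *Lmx1b*, a transcription factor, which was lower. The part of these cell types in the *Maob* values was not tested.

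**Figure D3:**
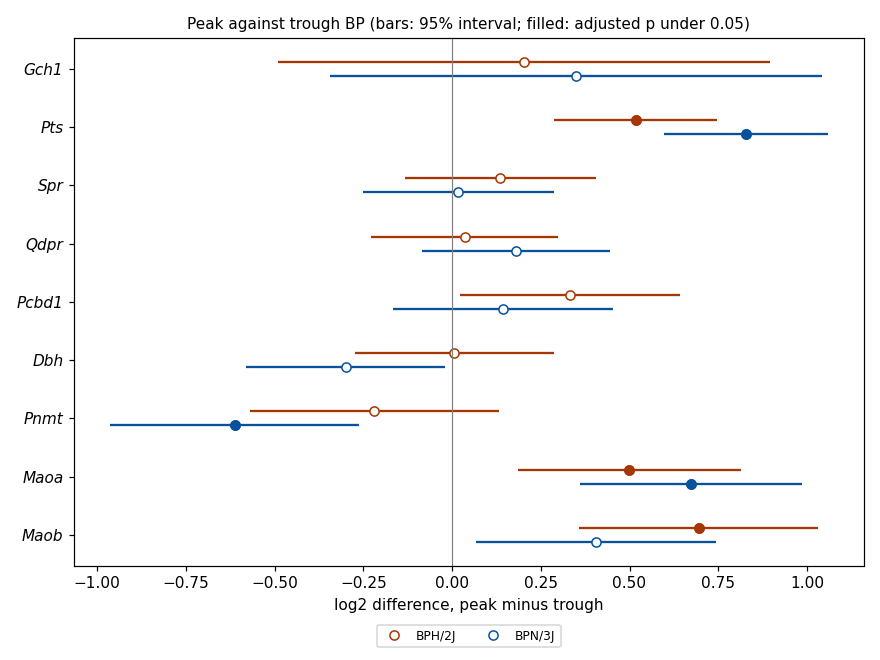
Log2 difference between ‘peak’ and ‘trough’ BP (horizontal axis) of the 9 genes in BPH/2J and BPN/3J, with 95% intervals from limma and filled points where the adjusted p was under 0.05. *Pts* and *Maoa* are filled in both strains, *Maob* in BPH/2J and *Pnmt* in BPN/3J, where it lies at -0.61.

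Of the genes for noradrenaline and adrenaline synthesis, *Pnmt* fell in BPN/3J. It was 6.17, 5.46 and 5.40 in BPN/3J mice 1, 3 and 4 at ‘trough’ BP, and 4.84, 4.99 and 5.53 at ‘peak’ BP (lowest, median and highest). The groups overlapped, since ‘peak’ mouse 7 stood above ‘trough’ mice 3 and 4. The difference was -0.61 (SE 0.17, interval -0.96 to -0.26, limma adjusted p = 0.0152). Without ‘trough’ mouse 1 it was -0.37 with an adjusted p of 0.133, and in a fit of the 2 BPN/3J groups alone the adjusted p was 0.0645. In BPH/2J *Pnmt* was 5.41, 5.42 and 5.27 in mice 1, 2 and 3 at ‘trough’ BP, and 4.97, 5.10 and 5.46 at ‘peak’ BP, a difference of -0.22 (SE 0.17, interval -0.57 to 0.13).

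*Dbh* lay between 4.40 and 5.27 in all mice, with the highest value again in BPN/3J ‘trough’ mouse 1. The BPN/3J difference was -0.30 (SE 0.13, interval -0.58 to -0.02, adjusted p = 0.103), and -0.16 without that mouse. Both probesets were dim, and of the probesets not above the 40th percentile 11.4% were called lower in BPN/3J. Of 5 measured noradrenergic markers, 1 (*Hand2*, a transcription factor) was called lower at ‘peak’ BP in BPN/3J and 0 in BPH/2J. Their summed signal lay between 293 and 397 in BPN/3J at ‘trough’ BP, highest in mouse 1, and between 207 and 403 at ‘peak’ BP, highest in mouse 7. In BPH/2J it lay between 295 and 328 at ‘trough’ BP and between 244 and 296 at ‘peak’ BP. Of 6 measured pituitary markers, 4 (*Gh*, *Prl*, *Lhb* and *Pitx1*) were called lower at ‘peak’ BP in BPN/3J. Their sum lay between 439 and 6330 in BPN/3J at ‘trough’ BP, lowest in mouse 1, and between 263 and 581 at ‘peak’ BP. The part of either marker list in the *Pnmt* and *Dbh* values was not tested.

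**Figure D4:**
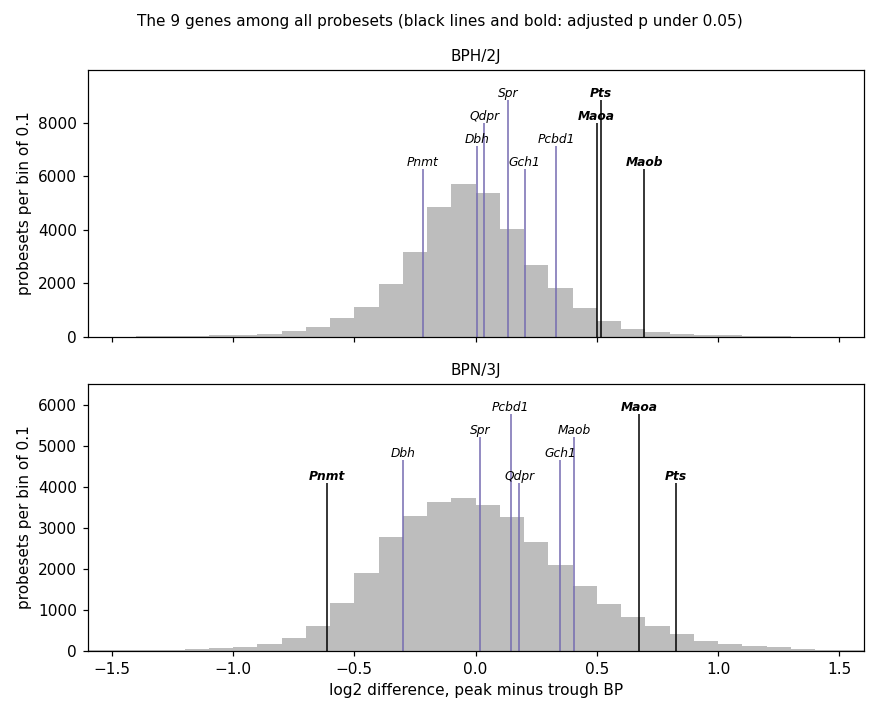
Number of probesets (vertical axis) by their log2 difference between ‘peak’ and ‘trough’ BP (horizontal axis), for BPH/2J above and BPN/3J below, with a line for each of the 9 genes. Black lines and bold names mark the genes with an adjusted p under 0.05, which were 3 in either strain.

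Between BPH/2J and BPN/3J at a given time, 0 of the 9 members were called in limma, against 1.33% of all probesets at ‘peak’ BP and 0.529% at ‘trough’ BP. At an unadjusted p under 0.05 there was 1 member at either time, beside 3452 of the 34760 probesets at ‘peak’ and 3601 at ‘trough’ BP, a share near that of the members. At ‘peak’ BP it was *Maob*, 0.28 higher on average in BPH/2J (SE 0.13, interval 0.00 to 0.55, unadjusted p = 0.048, adjusted p = 0.497), with overlapping groups. At ‘trough’ BP it was *Pts*, 0.36 higher on average in BPH/2J (SE 0.13, interval 0.09 to 0.62, unadjusted p = 0.0118, adjusted p = 0.346). The lowest BPH/2J value of *Pts*, 6.78, lay below the highest BPN/3J value, 6.81. *Maoa* at ‘trough’ BP was 0.28 higher on average in BPH/2J (SE 0.17, interval -0.08 to 0.64) and its groups did not overlap, as in 11.1% of all probesets.

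The other strain differences larger than their own SE were few. At ‘trough’ BP they were -0.31 for *Pnmt* (SE 0.19, interval -0.71 to 0.10) and -0.23 for *Dbh* (SE 0.15, interval -0.56 to 0.09), and at ‘peak’ BP 0.17 for *Spr* (SE 0.10, interval -0.05 to 0.39) beside that of *Gch1*. Without BPN/3J ‘trough’ mouse 1 they were -0.06 for *Pnmt* and -0.09 for *Dbh*, and without BPN/3J ‘peak’ mouse 11 that of *Spr* was 0.08. With array weights *Pts* and *Maoa* were called at ‘trough’ BP, as were 23.3% of all probesets.

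The study's own question was whether the change from ‘trough’ to ‘peak’ BP differed between the strains. It is measured by *d*, the amount by which BPH/2J exceeds BPN/3J at ‘peak’ BP less the amount at ‘trough’ BP, and by the adjusted fold difference (*aFD*), the fold that *d* stands for with its sign. For *d* limma called 0 of the 9 members and 0 of all probesets (0%). At an unadjusted p under 0.05 there were 0 members and 2890 of all probesets. The adjusted p of the members ran from 0.605 to 0.938. No member reached an *aFD* of 1.5 in size, which 5.93% of all probesets did. The *aFD* of the members ran from -1.24 for *Pts* to 1.31 for *Pnmt*.

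The intervals of *d* were wide. For *Pts*, *d* was -0.31 (SE 0.15, interval -0.64 to 0.02), so its larger rise in BPN/3J was not shown to differ from that in BPH/2J. For *Pnmt* it was 0.39 (SE 0.24, interval -0.10 to 0.89) and 0.15 without BPN/3J ‘trough’ mouse 1. For *Dbh* it was 0.31 (SE 0.19, interval -0.09 to 0.70) and 0.16 without the same mouse. For *Maob*, called over time in BPH/2J and not in BPN/3J, it was 0.29 (SE 0.23, interval -0.19 to 0.77). The other 5 members had a *d* smaller than its SE. For *Maoa* the interval of *d* ran from -0.62 to 0.27, which leaves room for a difference as large as its rise in BPH/2J.

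**Figure D5:**
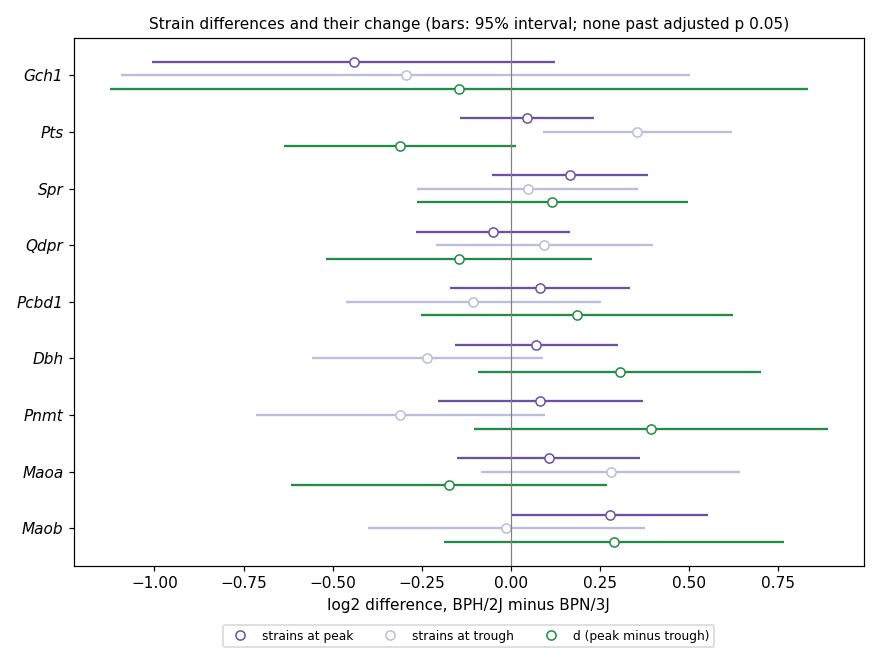
Log2 difference between BPH/2J and BPN/3J (horizontal axis) of the 9 genes at ‘peak’ BP, at ‘trough’ BP and as *d*, with 95% intervals from limma. All points are open, since 0 members had an adjusted p under 0.05, and the intervals of *Gch1* are the widest.

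Around these enzymes, 26 further genes of BH4 use and of monoamine synthesis, storage and breakdown were listed, and 22 were measured with a probeset of their own. The others were not analysed here. In BPH/2J 1 of the 22 was called higher at ‘peak’ BP and 1 lower, and in BPN/3J 2 were called higher and 4 lower. Of all probesets 8.64% were called in BPH/2J and 25.3% in BPN/3J, so both counts are near their background. The median difference of the 22 genes came to 0.02 in BPH/2J and 0.07 in BPN/3J. For *d* and for the strains at either time 0 were called in limma, and 2, 4 and 3 had an unadjusted p under 0.05 for *d*, at ‘peak’ and at ‘trough’ BP, beside 2890, 3452 and 3601 of the 34760 probesets.

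Of the genes that act beside the members in making BH4, *Cbr1*, a carbonyl reductase that can stand in for sepiapterin reductase, rose in both strains. In BPH/2J it rose by 0.34 (SE 0.09, adjusted p = 0.0328) and in BPN/3J by 0.32 (SE 0.09, adjusted p = 0.0221), and with quantile normalization neither was called (adjusted p of 0.0838 and 0.132). *Gchfr*, the feedback regulator of GTP cyclohydrolase, was not called, and its 5 differences ran from -0.11 to 0.12.

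Among enzymes that use BH4, *Nos1*, the neuronal nitric oxide synthase, fell in both strains. It was 8.71, 8.52 and 8.61 in BPH/2J mice 1, 2 and 3 at ‘trough’ BP, and 7.71, 7.81 and 7.93 at ‘peak’ BP (lowest, median and highest), with no overlap. In BPN/3J it was 8.06, 8.19 and 8.56 in mice 1, 3 and 4 at ‘trough’ BP, and 7.73, 7.89 and 8.15 at ‘peak’ BP, where the groups overlapped. The difference was -0.80 in BPH/2J (SE 0.11, adjusted p = 0.000678) and -0.36 in BPN/3J (SE 0.11, adjusted p = 0.0241). The *d* of *Nos1* was -0.44 (SE 0.15, unadjusted p = 0.01, adjusted p = 0.589). In BPN/3J alone the inducible synthase *Nos2* (-0.46, adjusted p = 0.0149) and the endothelial synthase *Nos3* (-0.43, adjusted p = 0.0306) were called lower, and *Agmo*, alkylglycerol monooxygenase, was called higher (0.72, adjusted p = 0.0149). That these calls were not made in BPH/2J does not show a difference between the strains. For *Nos2*, *Nos3* and *Agmo* the adjusted p of *d* was 0.649, 0.798 and 0.733.

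*Th* and *Ddc*, the catecholamine steps before *Dbh*, were not called. Their strain differences at ‘peak’ BP were -0.61 for *Th* (SE 0.48, interval -1.62 to 0.40) and -0.76 for *Ddc* (SE 0.30, interval -1.40 to -0.13, unadjusted p = 0.021, adjusted p = 0.354), with BPN/3J mouse 10 the highest for both. *Slc18a1*, the vesicular monoamine transporter of endocrine cells, was called lower in BPN/3J (-0.34, adjusted p = 0.0414), where the dim signal ran from 4.69 to 5.31 at ‘trough’ BP and from 4.60 to 4.75 at ‘peak’ BP. With median centring of the arrays the BPN/3J calls of *Nos1*, *Nos3* and *Slc18a1* were lost (adjusted p of 0.112, 0.0629 and 0.0918).

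Most of these calls were lost in some of the fits that left out 1 array. In BPN/3J those of *Nos2* and *Agmo* were lost without ‘trough’ mouse 1, that of *Cbr1* without ‘trough’ mouse 1 or 3, and that of *Nos1* without ‘trough’ mouse 3 or 4 (-0.22 without mouse 4). The call of *Nos3* was lost without any 1 ‘trough’ mouse or ‘peak’ mouse 5, 6 or 8. That of *Slc18a1* was lost without ‘trough’ mouse 1 or 3 or ‘peak’ mouse 5, 6, 7 or 8 (-0.21 without ‘trough’ mouse 1). In BPH/2J the call of *Cbr1* was lost without any 1 ‘trough’ mouse or ‘peak’ mouse 4, 5, 8 or 9, and that of *Nos1* was kept in all 18 fits.

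Over the 18 mice the signal of *Pts* followed that of *Maoa* (r = 0.904), and the r was 0.823 for *Maoa* with *Maob* and 0.784 for *Pts* with *Maob*. For *Dbh* with *Pnmt* r was 0.658. The mice share strain, time and array quality, so these are descriptions with no test.

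The genes most like *Pts* in Pearson's r were *Dnajc15* (0.980), *Mrpl13* (0.974) and *Rab2b* (0.973). Those most like *Maoa* were *Mrpl16* (0.977), *Ndufb3* (0.973) and *Mrpl11* (0.971), and those most like *Maob* were *Gabrg1* (0.948), *1700086L19Rik* (0.941) and *Glra2* (0.938). The search took in about as many candidates for each member, 14195 or 14196 genes with a mean signal above the 40th percentile. *Gch1* was most like *Ldoc1* (0.934), *Slc10a4* (0.885) and *Ddc* (0.870), but without BPN/3J ‘peak’ mouse 10 and BPH/2J ‘trough’ mouse 1 these fell to 0.553, 0.568 and 0.698.

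The leading gene was *Reep6* for *Spr* (0.833), *Fth1* for *Qdpr* (0.836) and *Ndn* for *Pcbd1* (0.908). For *Dbh* it was *Cdca3* (0.900) and for *Pnmt* it was *Mir296* (0.934). With so many candidates a high r is found for every member.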

How the data were processed

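Hypothalamic RNA of 18 mice was measured on Affymetrix Mouse Gene 1.0 ST arrays. The deposited values are log2 signals that the authors normalized by RMA, whose version is not given in the sources used here, and they were used without further normalization. None were missing. Array medians ran from 6.17 to 6.42. RMA makes arrays share 1 distribution of probe signals before summing probes, so a change shared by most genes is not seen. There is no read depth, and the number of arrays sets the precision.

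Tests used limma 3.58.1 in R 4.3.3 in 1 model of the 4 groups, with 14 residual and 2.94 prior degrees of freedom, and Benjamini-Hochberg adjustment over all probesets. The 5 comparisons set ‘peak’ against ‘trough’ BP within a strain, the strains against each other at a time, and, as *d*, the latter between times. Mice of a group are separate animals. Members were matched to probesets with 1 symbol in the platform annotation, and all 9 were found by gene ID in the RefSeq table. The *aFD* was taken from group means, without a test. Differences of members smaller than their own SE are counted and not printed. The procedure was tested on simulated data with noise independent between probesets and shifts larger than any member difference here. That test does not show how well smaller differences are found. Summed marker signals are on the linear scale.

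Named genes were the members, Th, Ddc and Gchfr, up to 4 called genes per pathway list, and the 3 genes most like each member. Members and lists were chosen with earlier results of these data known. The labels do not describe the title numbers as pairing mice between groups. Residual correlations between equally numbered mice ran from -0.296 to 0.194, and so few pairs cannot exclude a pairing. Alternatives were quantile normalization, median centring, probesets above the 40th percentile or with 1 symbol, weighted arrays, a robust prior with a trend, the compared groups alone, the mouse number as a block, group medians, a term for or no higher-numbered ‘peak’ mice, and leaving out each array. A fit without the arrays of BPN/3J ‘peak’ mice 10 and 11 was chosen after seeing the data. Figures were drawn with matplotlib 3.10.9.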

Additional observations from a re-analysis of the deposited data

Results flagged for a closer look

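In each group of 6, the highest or lowest mouse was set against the others for the 9 members and 22 pathway genes. By Dixon's test 7 of 62 groups held a mouse far from the rest, where chance alone gives about 5%. The same mice recur for every gene, so the 62 are not independent and the count does not show an excess. BPN/3J ‘peak’ mouse 10 stood above its group for *Gch1* (6.86, others 4.68 to 5.30), *Tph2* (8.39, others 4.48 to 4.85) and *Slc6a4* (7.69, others 5.04 to 5.49). BPH/2J ‘peak’ mouse 6 was low for *Pcbd1* (8.71, others 9.10 to 9.33) and BPH/2J ‘peak’ mouse 9 was high for *Th* (9.61, others 7.80 to 8.43). BPN/3J ‘peak’ mouse 7 was high for *Pnmt* (5.53, others 4.84 to 5.09), and BPN/3J ‘peak’ mouse 6 was low for *Slc18a1* (4.60, others 4.72 to 4.75).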

How the results depend on the processing

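The rise of *Pts* and of *Maoa* in BPN/3J was called under every alternative run. All 3 BPH/2J calls were lost without BPH/2J ‘trough’ mouse 1, where 2.98% of all probesets were called. *Maoa* in BPH/2J was also lost with median centring (0.56, adjusted p = 0.0698). Leaving out each array in turn gave 0 to 3 members called in BPH/2J, 2 to 4 in BPN/3J, and 0 to 0 for *d* and for the strains at either time.

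The labels do not say whether the mouse numbers pair mice. With a replicate block on the 12 arrays that share numbers, 0 members were called in BPH/2J (adjusted p of 0.110 for *Pts*, 0.113 for *Maoa* and 0.112 for *Maob*), where 0.00575% of all probesets were. In BPN/3J the block gave 4, among them *Maob* (0.61, adjusted p = 0.047), and *Qdpr* turned to -0.0839. For *d* and for the strains at either time it gave 0. Fewer arrays entered this fit.

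Array weights gave 4 members in BPH/2J (adding *Pcbd1*, 0.34, adjusted p = 0.0496), where 26.6% of all probesets were called, 5 in BPN/3J (adding *Pcbd1* and *Maob*), where 55.9% were, and 2 for the strains at ‘trough’ BP (*Pts* 0.34, adjusted p = 0.00595, and *Maoa* 0.29, adjusted p = 0.0215), with a weight of 9.44 for BPN/3J ‘trough’ mouse 3 and of 0.409 and 0.636 for the others of its group. *Maob* in BPN/3J passed with array weights (adjusted p = 0.00069), a term for the higher-numbered mice (0.0141), without these mice (0.0173), with probesets of 1 symbol (0.0484), and without ‘peak’ mouse 7 (0.0319), mouse 10 (0.0353) or mice 10 and 11 (0.0221, chosen after seeing the data). BPN/3J ‘peak’ mice 7, 10 and 11 had the lowest *Maob* values of their group, so leaving them out had to widen the difference. The cause was not tested. An *aFD* of 1.5 was reached by 0 members with group medians too.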
